A study of Mus musculus with 36 samples.

Results

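The ErbB receptors and their ligands were followed in an intraductal mouse model of triple-negative breast cancer. The 10 genes described here were taken by name, as a receptor family and its ligands, with no limit on their values: the 4 receptors Egfr, Erbb2, Erbb3 and Erbb4, the EGF-family ligands Areg, Ereg, Btc, Hbegf and Tgfa, and the neuregulin Nrg1. All 10 were found among the 21650 genes of the expression table. RNA sequencing covered 36 libraries in 12 groups of 3. Lactating BALB/c females received 4T1 cells, a mammary tumor line of BALB/c origin that spreads to other organs and here carries firefly luciferase, through the teat canal of the third mammary gland shortly after weaning. Lactating C57BL/6 females received Py230 cells, a line from spontaneous tumors of C57BL/6 mice in which the MMTV promoter drives the polyoma middle T oncogene. The cells were given in Matrigel, a basement membrane extract, and control glands of each strain received Matrigel without cells. Tissue was taken at 1, 3 and 6 weeks after the cells were given. The labels give neither the age at sampling nor whether the BALB/c or C57BL/6 hosts of these libraries carried a transgene, and more Py230 than 4T1 cells were inoculated. Each model used 1 cell line in 1 strain, so line, strain and number of cells cannot be told apart in a comparison of the tumors. Whole tumors or glands were sequenced, and in such bulk samples fewer cells of a type and less RNA per cell cannot be told apart.

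ErbB receptors are membrane tyrosine kinases that pair with each other when a ligand binds. Egfr and Erbb4 bind ligands and signal, Erbb2 has no known ligand and serves as a partner, and Erbb3 binds neuregulins but has little kinase activity of its own. Areg, Ereg, Btc, Hbegf and Tgfa are made as membrane-bound precursors that are released by ADAM proteases. Areg, Ereg, Btc, Hbegf and Tgfa bind Egfr, Btc, Ereg and Hbegf also bind Erbb4, and Nrg1 binds Erbb3 and Erbb4. The bound receptors switch on the RAS-MAPK and PI3K-AKT pathways. In the mammary gland Areg and Egfr act in ductal growth at puberty, and Erbb4 acts through STAT5 in the lactating epithelium.

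The expression values are scores. The mean over all genes is 0 and the SD is 1 within every library, and a score of 1 thus lies 1 SD above the average gene of that library. Among the 13567 genes whose mean normalized count reached 100, the mean score was higher by 0.340 for each doubling of that count (r = 0.972 across genes, which are not independent replicates), so that 1 score unit between genes corresponded to about 2.945 log2 units. This gauge is rough, and it does not hold for genes with few reads. The depth of the libraries cannot be read from scores and is unknown. Differences below are in score units with the standard error (SE) of a limma model over all 36 libraries, and a gene was called changed at an adjusted p under 0.05 over all genes. An exact permutation test of 3 libraries against 3 cannot go below p = 0.1, so calls rest on that model. The study calls the tumors of a group independent samples, and the sources used here do not say whether the glands of a group came from separate animals, so the spread between glands may be technical.

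Marker genes showed which tissue the libraries held. Epithelial keratin genes and Epcam were expressed in every group, with a mean score of the 8 luminal markers between 0.84 and 1.51. The 0.84 was that of 4T1 tumors at week 6, against 1.42 in Py230 tumors and 1.44 in BALB/c glands of that week. The 5 adipocyte markers had a mean score of 1.86 to 2.11 in the 6 groups of Matrigel glands, 1.38 to 1.92 in the tumors at weeks 1 and 3, 0.34 in Py230 tumors at week 6 and -0.22 in 4T1 tumors at week 6. Libraries stood apart within some groups. At week 3, adipocyte markers averaged 0.66 in 4T1 tumor 1 and up to 2.16 in the other 4T1 tumors. In the same week they averaged 0.36 in Py230 tumor 1 and up to 2.02 in the other Py230 tumors. At week 6 they ran from -0.11 in Py230 tumor 1 to 1.04 in Py230 tumor 3. The 4 neutrophil markers averaged 0.76 in 4T1 tumors at week 6, against -0.16 in Py230 tumors and -0.91 and -0.97 in the glands of BALB/c and C57BL/6 mice. The 4 milk protein genes averaged -0.80 in 4T1 tumors at week 6 and were at 0.12 in Py230 tumors, against 0.94 and 0.63 in the glands. The 4 skeletal muscle markers averaged -0.01 in 4T1 and 0.81 in Py230 tumors at week 6, against 2.79 and 2.23 in the glands. They spread widely within groups, from -0.50 to 3.09 among C57BL/6 glands at week 1. Among Py230 tumors they ran from -0.66 to 2.54 at week 3 and from -0.58 to 1.60 at week 6. Against the glands at week 6, all 5 adipocyte markers were lower in both tumors by limma, 4 of the 8 luminal markers were lower and 1 higher in 4T1 tumors and 1 was lower and 2 higher in Py230 tumors, 3 of the 4 milk protein genes were lower and 0 higher in 4T1 tumors, 2 were lower and 1 higher in Py230 tumors, and 4 of the 5 basal epithelial markers were lower in 4T1 tumors and 0 in Py230 tumors.

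Of the receptors, Erbb3, Erbb2 and Egfr were well expressed and Erbb4 was not. Per kilobase of annotated exon, the authors' mean normalized count over the whole series was 247 for Erbb3, 184 for Erbb2, 153 for Egfr and 8.65 for Erbb4. Among the ligands it was 87 for Areg, 56.1 for Tgfa, 55.5 for Hbegf, 22.4 for Nrg1, 15.8 for Btc and 1.83 for Ereg. Ereg stood near the detection limit with a mean normalized count of 7.54, above that of 8.21% of genes, so that few reads stand behind its scores.

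The receptors changed most in 4T1 tumors at week 6. Egfr, Erbb3 and Erbb4 were all lower there than in BALB/c Matrigel glands and than in Py230 tumors of the same week, whereas Erbb2 was not called in either comparison. At week 6, Egfr differed by -0.82 ± 0.075 (SE) from the glands, Erbb3 by -0.93 ± 0.12 and Erbb4 by -1.18 ± 0.13.

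**Figure D1:**
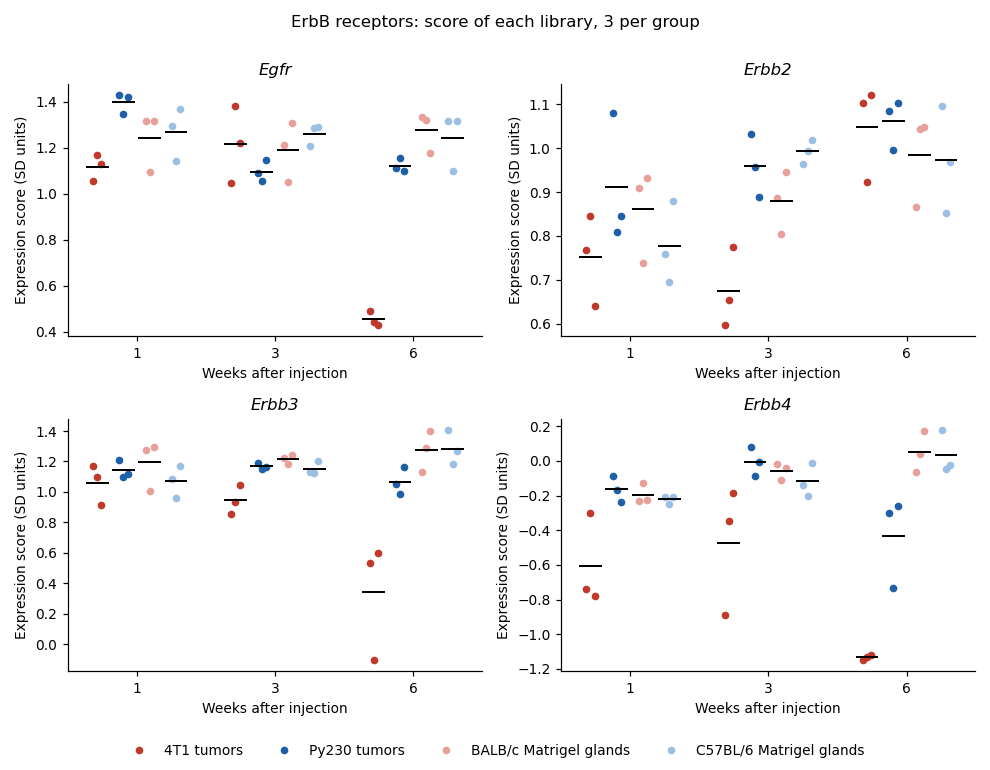
Expression score (SD units within a library) of the 4 ErbB receptors against weeks after injection, with 1 point per library, 3 libraries per group and a black line at the group mean, for 4T1 tumors, Py230 tumors and the Matrigel glands of both strains. Egfr sat between 0.43 and 0.49 in the 4T1 tumors at week 6 and at 1.05 or above in every other library, while Erbb2 of those tumors, at 0.92 to 1.12, overlapped the Py230 tumors and the glands of that week.

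Egfr lies on chr11:16752203-16918158 (GRCm38, plus strand). Its scores in 4T1 tumors were 1.06, 1.17 and 1.13 at week 1, 1.05, 1.38 and 1.22 at week 3, and 0.49, 0.44 and 0.43 at week 6. In Py230 tumors they were 1.43, 1.35 and 1.42 at week 1, 1.09, 1.05 and 1.15 at week 3, and 1.11, 1.15 and 1.10 at week 6. The 18 glands ranged from 1.05 to 1.37 with a median of 1.29. The 4T1 tumors at week 6 lay below all other libraries, and the other groups overlapped with their neighbours in the order of means except for Py230 tumors at week 1, which were highest. Egfr fell by 0.76 ± 0.075 between weeks 3 and 6 in 4T1 tumors (limma adjusted p = 8.15e-09). In Py230 tumors it fell earlier, by 0.30 ± 0.075 between weeks 1 and 3 (adjusted p = 0.00683), and differed by 0.024 ± 0.075 between weeks 3 and 6 (adjusted p = 0.903). Fibroblast markers were also lower in Py230 tumors at week 3 than at week 1 in 5 of 5 cases (group means of 2.12 and 1.65). In 4T1 tumors 2 of these 5, Dcn and Lum, were lower at week 6 than at week 3 (group means of 1.94 and 1.55), as were 3 of the 8 luminal markers, Krt19, Elf5 and Pgr, while Krt8 and Krt18 were higher. Of the 5 basal markers, 2 were lower in Py230 tumors at week 3 than at week 1, and 0 were called between weeks 3 and 6. In 4T1 tumors 4 of the 5 were lower at week 6 than at week 3. Adipocyte markers averaged 1.59 in 4T1 tumors at week 3 and -0.22 at week 6. In Py230 tumors they averaged 1.92, 1.38 and 0.34 at weeks 1, 3 and 6. The part of these cells in the Egfr result was not tested. The difference of 4T1 minus Py230 tumors in Egfr went from -0.28 at week 1 (adjusted p = 0.0115) to 0.12 at week 3 (adjusted p = 0.246) and -0.67 at week 6 (adjusted p = 5.49e-08). The call at week 1 was lost without 4T1 tumor 1 (-0.25, adjusted p = 0.0664).

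The 250 bases before the RefSeq start of Egfr and Tgfa are shown because these genes moved in opposite directions in 4T1 tumors at week 6, and those of Areg because it alone among the promoters held 3 of the motifs searched. The sequences are from RefSeq on GRCm38.p6, read 5′ to 3′ on the strand of the gene. Capitals mark matches to the TATA box motif TATAAA, to the GC box motif GGGCGG, to the AP-1 motif TGANTCA and to the CRE motif TGACGTCA on either strand, so that CCGCCC is a GC box on the opposite strand.
Egfr, chr11:16751953-16752202, plus strand: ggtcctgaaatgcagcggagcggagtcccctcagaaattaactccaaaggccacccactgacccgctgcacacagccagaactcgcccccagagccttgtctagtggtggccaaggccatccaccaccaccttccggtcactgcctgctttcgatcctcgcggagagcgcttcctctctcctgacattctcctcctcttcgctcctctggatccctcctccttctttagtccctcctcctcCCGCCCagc
Tgfa, chr6:86194972-86195221, plus strand: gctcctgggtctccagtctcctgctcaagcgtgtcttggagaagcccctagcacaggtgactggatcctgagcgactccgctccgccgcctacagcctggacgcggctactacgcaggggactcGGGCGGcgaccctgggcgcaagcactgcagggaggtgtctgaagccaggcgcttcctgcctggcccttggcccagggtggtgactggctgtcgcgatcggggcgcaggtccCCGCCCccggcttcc
Areg, chr5:91139349-91139598, plus strand: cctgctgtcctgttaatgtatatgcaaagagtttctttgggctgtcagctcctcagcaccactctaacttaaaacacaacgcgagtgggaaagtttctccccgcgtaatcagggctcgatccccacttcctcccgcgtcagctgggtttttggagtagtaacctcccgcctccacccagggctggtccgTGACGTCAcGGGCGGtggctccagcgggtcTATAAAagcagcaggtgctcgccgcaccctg
Of the 10 genes, 6 had a promoter entry, namely these 3 and Erbb2, Erbb4 and Btc. Egfr held 1 GC box, Tgfa held 2, and Areg held 1 TATA box, 1 GC box and 1 CRE, while Erbb2, Erbb4 and Btc held none of the 4 motifs in this window. No match overlapped another. Over 32851 promoters of the same length, 12.4% held a TATA box, 32.7% a GC box, 6.75% an AP-1 motif and 1.55% a CRE. The share of G and C was 60.8% for Egfr, 69.2% for Tgfa and 57.2% for Areg, with a median of 52.4% over all promoters. A match of letters does not show a working site.

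Erbb3, the neuregulin receptor, lies on chr10:128567523-128589652 (minus strand). Its scores in 4T1 tumors were 1.17, 1.10 and 0.91 at week 1, 0.85, 0.93 and 1.05 at week 3, and 0.53, -0.10 and 0.60 at week 6. Py230 tumors stayed between 0.98 and 1.21 over the 3 time points, and the glands ranged from 0.96 to 1.40 with a median of 1.19. All 3 of the 4T1 tumors at week 6 were below all other libraries. Erbb3 differed from the glands of BALB/c mice by -0.93 ± 0.12 (limma adjusted p = 2.24e-07) and from Py230 tumors by -0.72 ± 0.12 (adjusted p = 1.28e-05) at that time. 4T1 tumor 2 was the lowest of the group, and without it Erbb3 differed by -0.71 from the glands and by -0.50 from Py230 tumors, with both calls kept. In the same library the 5 basal markers averaged -0.58, against up to 0.51 in the other 4T1 tumors of that week, and the 8 luminal markers averaged 0.65, against up to 0.96. Of the luminal markers 4 were lower in 4T1 tumors than in the glands of BALB/c mice and 4 lower than in Py230 tumors at week 6, and the part of these cells in the result was not tested.

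Erbb4, the receptor linked to lactation, lies on chr1:68032186-69108059 (minus strand). The 4T1 tumors had Erbb4 scores of -0.74, -0.30 and -0.78 at week 1, -0.89, -0.35 and -0.18 at week 3, and -1.15, -1.13 and -1.12 at week 6. In Py230 tumors they were -0.08, -0.17 and -0.24 at week 1, 0.08, -0.09 and -0.01 at week 3, and -0.30, -0.73 and -0.26 at week 6. The glands ranged from -0.25 to 0.18 with a median of -0.085. Erbb4 was lower in 4T1 tumors than in Py230 tumors at every time point, by 0.44 ± 0.13 at week 1 (limma adjusted p = 0.0203), by 0.47 ± 0.13 at week 3 (adjusted p = 0.00833) and by 0.70 ± 0.13 at week 6 (adjusted p = 9.75e-05). At week 1 this call was lost without 4T1 tumor 1 (-0.38), 4T1 tumor 3 (-0.36) or Py230 tumor 1 (-0.40), and at week 3 without 4T1 tumor 1 (-0.26, adjusted p = 0.0976), the library low in adipocyte markers. Erbb4 was also the only receptor called in Py230 tumors against C57BL/6 glands, with -0.47 ± 0.13 at week 6 (adjusted p = 0.00484), a call lost without Py230 tumor 2 (-0.32, adjusted p = 0.0611). The calls of the 4 milk protein genes are set beside those of Erbb4. In 4T1 against Py230 tumors 4 of the 4 were higher at week 1, 2 were higher and 1 lower at week 3, and 4 were lower at week 6, and in Py230 tumors against glands at week 6, 2 were lower (Csn2 and Csn1s1) and 1 was higher (Wap). In BALB/c against C57BL/6 glands at week 1, 3 of the 4 were also higher and 0 lower. In 4T1 tumors against their own glands at week 1, 0 were called. The part of the milk protein genes in the Erbb4 result was not tested.

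Erbb2 (chr11:98412470-98437716, plus strand), the receptor without a ligand, followed another course. The 4T1 tumors had Erbb2 scores of 0.77, 0.85 and 0.64 at week 1, 0.60, 0.65 and 0.77 at week 3, and 1.10, 0.92 and 1.12 at week 6. The Py230 tumors had 1.08, 0.81 and 0.85 at week 1, 1.03, 0.96 and 0.89 at week 3, and 1.08, 1.00 and 1.10 at week 6, and the glands ranged from 0.69 to 1.10. Erbb2 was 0.29 ± 0.077 lower in 4T1 tumors than in Py230 tumors at week 3 (limma adjusted p = 0.00605), and it rose by 0.37 ± 0.077 in 4T1 tumors between weeks 3 and 6 (adjusted p = 0.000216). At week 6 the models differed by -0.012 ± 0.077 (adjusted p = 0.917). The end of Erbb2 overlaps 9 exonic bases of Mien1 on the other strand, and the sources do not state whether counting used strand. Mien1 was 0.20 ± 0.047 lower in 4T1 tumors than in Py230 tumors at week 3 (adjusted p = 0.00239) and 0.17 ± 0.047 lower at week 6 (adjusted p = 0.00493). Its neighbour Pgap3 was also lower in 4T1 tumors, by 0.28 ± 0.055 at week 3 (adjusted p = 0.000384) and by 0.29 ± 0.055 at week 6 (adjusted p = 0.000107). Of 7 genes next to Erbb2, these 2 were lower and 0 higher in 4T1 tumors at weeks 3 and 6 by limma (18.5% and 16.7% of all genes were lower), whereas at week 1, 0 were lower and 2 were higher, Stard3 (0.20) and Ikzf3 (0.49) (11% of all genes were higher).

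Among the ligands, Hbegf and Tgfa were higher than in the glands in both models at week 6, and more so in 4T1 tumors, while Nrg1 rose in Py230 tumors and Ereg rose in 4T1 tumors. Areg varied within groups. Btc was slightly lower in 4T1 tumors.

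**Figure D2:**
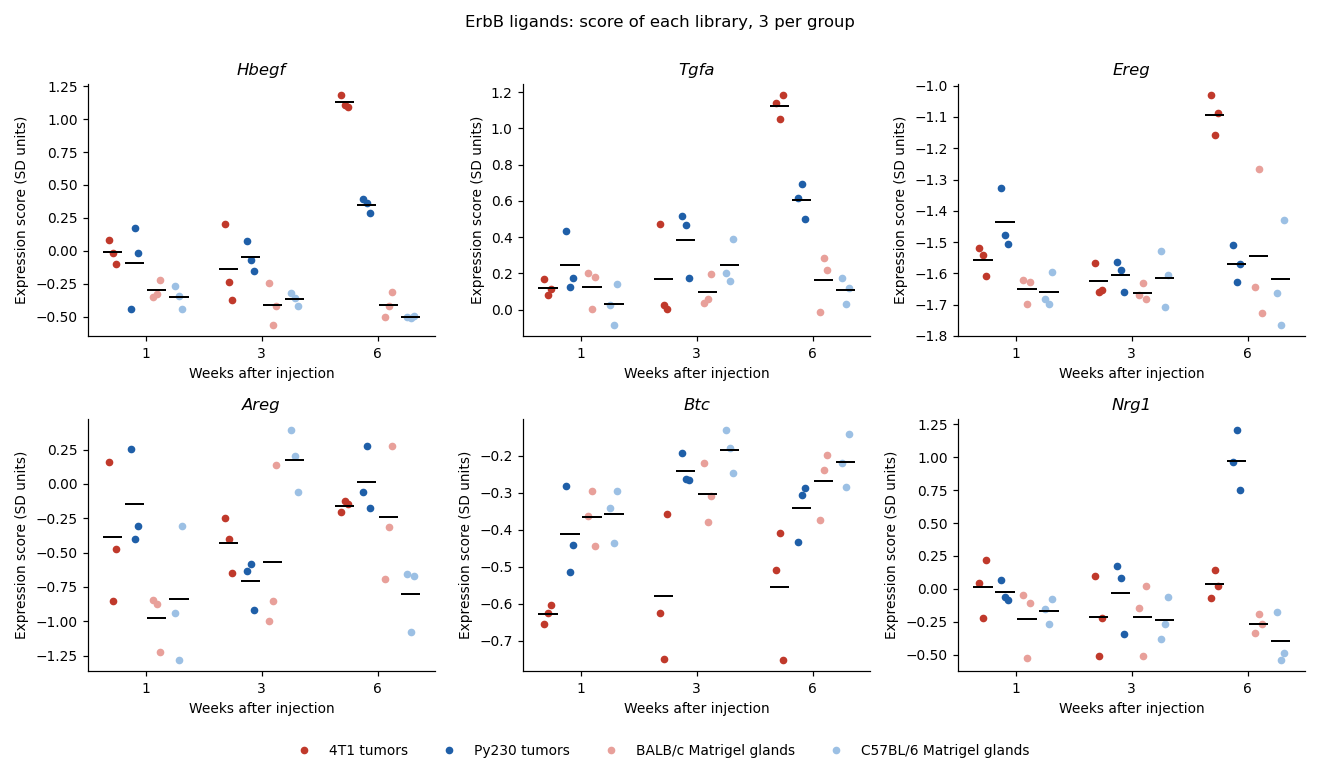
Expression score (SD units within a library) of the 6 ErbB ligands against weeks after injection, with 1 point per library, 3 libraries per group and a black line at the group mean. At week 6 Hbegf and Tgfa were highest in 4T1 tumors, with means of 1.13 for each, and Nrg1 was highest in Py230 tumors, with a mean of 0.97.

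Hbegf (chr18:36504927-36515805, minus strand), which encodes heparin-binding EGF-like growth factor, showed the largest rise of the 10 genes. Scores of Hbegf in 4T1 tumors were 0.08, -0.02 and -0.10 at week 1, 0.21, -0.24 and -0.37 at week 3, and 1.18, 1.11 and 1.09 at week 6. In Py230 tumors they were -0.44, 0.17 and -0.02 at week 1, 0.07, -0.07 and -0.15 at week 3, and 0.39, 0.36 and 0.29 at week 6. The glands ranged from -0.56 to -0.22 with a median of -0.39, and at week 6 the 3 sets of libraries were fully separated, with 4T1 tumors above Py230 tumors and both above the glands. At week 6, Hbegf was 1.54 ± 0.12 higher in 4T1 tumors than in BALB/c glands (limma adjusted p = 6.21e-11) and 0.85 ± 0.12 higher in Py230 tumors than in C57BL/6 glands (adjusted p = 2.68e-06). The difference between the tumors was 0.78 ± 0.12 (adjusted p = 5.26e-06). In 4T1 tumors it rose by 1.26 ± 0.12 between weeks 3 and 6 (adjusted p = 2.97e-09). The rise of 0.40 ± 0.12 in Py230 tumors over the same interval (adjusted p = 0.0427) was lost without any of Py230 tumors 2 or 3 of week 3 (0.39 and 0.34) or tumors 1 or 2 of week 6 (0.37 and 0.39). All 4 neutrophil markers, S100a8, S100a9, Csf3r and Cxcr2, also had higher scores in the 4T1 tumors than in the Py230 tumors at week 6, and the part of neutrophils in the Hbegf result was not tested.

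Tgfa (chr6:86195223-86275719, plus strand), a ligand that binds Egfr alone, followed a similar course. The 4T1 tumors had Tgfa scores of 0.17, 0.08 and 0.12 at week 1, 0.47, 0.03 and 0.0031 at week 3, and 1.14, 1.05 and 1.18 at week 6. The Py230 tumors had 0.44, 0.12 and 0.17 at week 1, 0.52, 0.47 and 0.18 at week 3, and 0.62, 0.69 and 0.50 at week 6. The glands ranged from -0.085 to 0.39 with a median of 0.15. Both tumors lay above all glands at week 6. At that time Tgfa was 0.96 ± 0.11 higher in 4T1 tumors than in BALB/c glands (limma adjusted p = 4.19e-08), 0.50 ± 0.11 higher in Py230 tumors than in C57BL/6 glands (adjusted p = 0.000492) and 0.52 ± 0.11 higher in 4T1 than in Py230 tumors (adjusted p = 0.000298). At week 3, 4T1 tumor 1 had the highest Tgfa and Hbegf and the lowest Erbb4 and adipocyte markers of its group. Tgfa was 0.22 ± 0.11 lower in 4T1 tumors than in Py230 tumors at that time (adjusted p = 0.129), and without this library or without Py230 tumor 3 the difference was called, at -0.37 and -0.32. Tgfa overlaps 118 exonic bases of an unnamed transcript, Gm43917, on the other strand.

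Nrg1 (chr8:31814551-32884029, minus strand), the ligand of Erbb3 and Erbb4, stood out in Py230 tumors at week 6. Between the tumors it was not called at week 1 (limma adjusted p = 0.894) or week 3 (adjusted p = 0.429). Its scores in Py230 tumors were 0.07, -0.06 and -0.08 at week 1, 0.17, 0.08 and -0.34 at week 3, and 0.97, 1.20 and 0.75 at week 6. In 4T1 tumors they were 0.04, -0.22 and 0.22 at week 1, 0.10, -0.51 and -0.22 at week 3, and -0.07, 0.14 and 0.02 at week 6. The glands ranged from -0.54 to 0.025 with a median of -0.23, and the Py230 tumors at week 6 were above all other libraries. Nrg1 rose by 1.00 ± 0.16 in Py230 tumors between weeks 3 and 6 (limma adjusted p = 0.000319), was 1.37 ± 0.16 above C57BL/6 glands at week 6 (adjusted p = 3.76e-07) and was 0.94 ± 0.16 lower in 4T1 than in Py230 tumors (adjusted p = 3.42e-05). In 4T1 tumors it was 0.30 ± 0.16 above BALB/c glands at week 6 (adjusted p = 0.113). The 4 markers of Schwann cells, which respond to Nrg1, averaged 0.31 in Py230 tumors and -0.30 in 4T1 tumors at week 6, against 0.82 and 0.95 in the glands, and their part in the result was not tested. Nrg1 shares 482 exonic bases with the noncoding gene Gm26578 on the other strand.

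Ereg, Areg and Btc lie with Epgn, which encodes epigen, in 376 kb of chromosome 5, and they did not move together. Ereg (chr5:91074622-91093646, plus strand), which encodes epiregulin, had scores of -1.03, -1.16 and -1.09 in 4T1 tumors at week 6 and of -1.51, -1.63 and -1.57 in Py230 tumors. It was between -1.66 and -1.33 in the tumors at weeks 1 and 3, and the glands ranged from -1.76 to -1.27. The difference at week 6 was 0.45 ± 0.082 against BALB/c glands (limma adjusted p = 4.37e-05) and 0.48 ± 0.082 against Py230 tumors (adjusted p = 3.52e-05), and an antisense gene, Gm19610, covers 141 of its exonic bases. Epgn was 0.19 ± 0.055 higher in 4T1 tumors than in BALB/c glands (adjusted p = 0.00387) and 0.42 ± 0.055 higher in Py230 tumors than in C57BL/6 glands at week 6 (adjusted p = 1.25e-06).

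Areg (chr5:91139599-91148432, plus strand), which encodes amphiregulin, had the largest SE of the 10 genes, 0.28. Its scores in 4T1 tumors were 0.16, -0.85 and -0.47 at week 1, -0.25, -0.40 and -0.65 at week 3, and -0.20, -0.13 and -0.15 at week 6. In Py230 tumors they were 0.26, -0.40 and -0.31 at week 1, -0.63, -0.58 and -0.91 at week 3, and -0.06, 0.28 and -0.18 at week 6. The glands spread from -1.28 to 0.39, with C57BL/6 glands at 0.39, 0.20 and -0.06 at week 3 and at -0.66, -1.07 and -0.67 at week 6. Py230 tumors were thus 0.89 ± 0.28 below C57BL/6 glands at week 3 (limma adjusted p = 0.0269) and 0.81 ± 0.28 above them at week 6 (adjusted p = 0.0185). The first call was lost without Py230 tumor 1 (-0.93) or 3 (-0.79) or C57BL/6 gland 1 (-0.78) or 2 (-0.88), and the second without Py230 tumor 2 (0.68) or C57BL/6 gland 2 (0.68). 4T1 tumors did not differ from BALB/c glands in Areg by a call at any time point, with 0.59 ± 0.28 at week 1 (adjusted p = 0.137), 0.14 ± 0.28 at week 3 and 0.084 ± 0.28 at week 6.

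Btc (chr5:91357261-91402994, minus strand), which encodes betacellulin, was low in all groups. The 4T1 tumors had Btc scores of -0.65, -0.62 and -0.60 at week 1, -0.62, -0.75 and -0.36 at week 3, and -0.51, -0.41 and -0.75 at week 6. Py230 tumors ranged from -0.51 to -0.19 and the glands from -0.44 to -0.13. Btc was 0.26 ± 0.083 lower in 4T1 tumors than in BALB/c glands at week 1 (limma adjusted p = 0.0341) and 0.29 ± 0.083 lower at week 6 (adjusted p = 0.00438). It was 0.34 ± 0.083 lower than in Py230 tumors at week 3 (adjusted p = 0.00306) and 0.21 ± 0.083 lower at week 6 (adjusted p = 0.0395). The calls at week 6 were lost without 4T1 tumor 3, with -0.19 against glands and -0.12 against Py230 tumors, and the latter also without Py230 tumor 2 (-0.20) or 3 (-0.19). The call against glands at week 1 was lost without 4T1 tumor 1 (-0.25) or 3 (-0.27) or BALB/c gland 1 (-0.26) or 2 (-0.22), as was that of Erbb4 (-0.41 with all libraries, and -0.34, -0.32, -0.43 and -0.38 without them in this order).

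Against their own glands, the tumors had most calls at week 6, among the 10 genes as among all genes, and the counts of the 10 stood near the shares of all genes. Against BALB/c glands, limma called 2 of the 10 genes in 4T1 tumors at week 1 (16.6% of all genes were called), namely Erbb4 and Btc, both lower (6.72% of all genes), 0 at week 3 (3.25% of all genes) and 7 at week 6 (60.1% of all genes). Of the 7, Hbegf, Tgfa and Ereg were higher (38.6% of all genes) and Egfr, Erbb3, Erbb4 and Btc were lower (21.5% of all genes). Against C57BL/6 glands, 0 were called in Py230 tumors at week 1 (0.00924% of all genes), 1 at week 3 (19.7%), namely Areg, which was lower (6.9%), and 5 at week 6 (47.6%). Of these 5, Nrg1, Hbegf, Areg and Tgfa were higher (28.8% of all genes) and Erbb4 was lower (18.7%). The counts of 0 stood beside unadjusted p under 0.05 for 4T1 tumors at week 3 in 5 genes, Erbb2, Erbb3, Erbb4, Btc and Hbegf, and for Py230 tumors at week 1 in 3 genes, Areg, Ereg and Hbegf. Without 4T1 tumor 3, 3 genes were called at week 3, namely Erbb4 (-0.56), Btc (-0.39) and Hbegf (0.39). The median difference of the 10 genes at week 6 was 0.073 in 4T1 and 0.069 in Py230 tumors, against 0.065 and 0.034 over all genes.

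**Figure D3:**
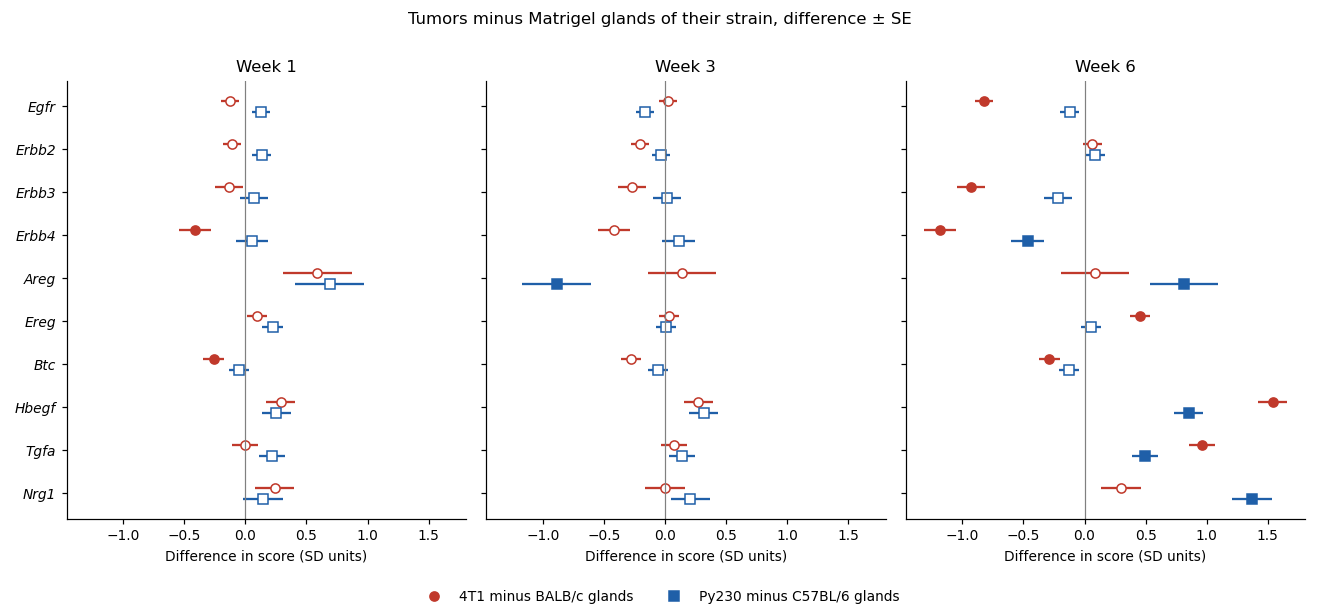
Difference in score (SD units, tumor mean minus mean of the Matrigel glands of the same strain, bars show the SE of the limma model) for the 10 genes at weeks 1, 3 and 6, with 4T1 tumors as circles and Py230 tumors as squares, filled where the adjusted p was under 0.05. At week 6 Hbegf and Tgfa lay to the right in both models, Nrg1 reached 1.37 in Py230 tumors, and Egfr, Erbb3 and Erbb4 lay between -1.18 and -0.82 in 4T1 tumors.

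The glands alone gave no call between the strains. Of the 10 genes, 0 were called between BALB/c and C57BL/6 Matrigel glands at weeks 1, 3 or 6 by limma, while 3.06%, 3.77% and 3.84% of all genes were. At an unadjusted p under 0.05, Areg alone passed, at week 3, with -0.75 ± 0.28 (adjusted p = 0.178). Without BALB/c gland 3 this became -1.10 (adjusted p = 0.0204).

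Between the 2 tumors, the counts were near the shares of all genes at weeks 1 and 3, and the 8 of 10 at week 6 stood beside a share of 40.8%. Limma called 2 of the 10 genes at week 1 (19.4% of all genes), namely Egfr and Erbb4, 3 at week 3 (30.3%), namely Erbb2, Erbb4 and Btc, and 8 at week 6. At weeks 1 and 3 all called genes were lower in 4T1 tumors (8.43% and 18.5% of all genes). At week 6, Hbegf, Tgfa and Ereg were higher in 4T1 tumors (24.1% of all genes) and Egfr, Erbb3, Erbb4, Btc and Nrg1 were lower (16.7%). Groups whose 3 libraries did not overlap were common at week 6, with 58.2% of all genes between the tumors, 66.6% for 4T1 tumors against BALB/c glands and 64.1% for Py230 tumors against C57BL/6 glands. Between weeks 3 and 6 a shift of the difference was itself called for 6 of the 10 genes (26.7% of all genes), with Egfr, Erbb3 and Nrg1 lower (8.88%) and Ereg, Hbegf and Tgfa higher (17.8%), and between weeks 1 and 3 for Egfr alone (15.3%), which was higher (4.89%). With the gland difference of the same week subtracted, the tumors differed in 0 genes at week 1 (0.305% of all genes), 0 at week 3 (9.15%) and 7 at week 6 (25.5%) by limma. At an unadjusted p under 0.05, 3 genes passed at week 1 (Egfr, Erbb2 and Erbb4) and 2 at week 3 (Erbb4 and Areg). Within 4T1 tumors 0 genes were called between weeks 1 and 3 (0.628% of all genes, and 0 at an unadjusted p under 0.05) and 7 between weeks 3 and 6 (53% of all genes), of which Erbb2, Ereg, Hbegf and Tgfa rose (34.2%) and Egfr, Erbb3 and Erbb4 fell (18.8%). Within Py230 tumors Egfr alone was called between weeks 1 and 3 (20% of all genes), and it fell (7.17%). Between weeks 3 and 6, 2 genes were called in Py230 tumors (6.03%), Hbegf and Nrg1, and both rose (3.96%). Without 4T1 tumor 1 of week 3, Erbb4 was called higher at week 3 than at week 1 (0.34).

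**Figure D4:**
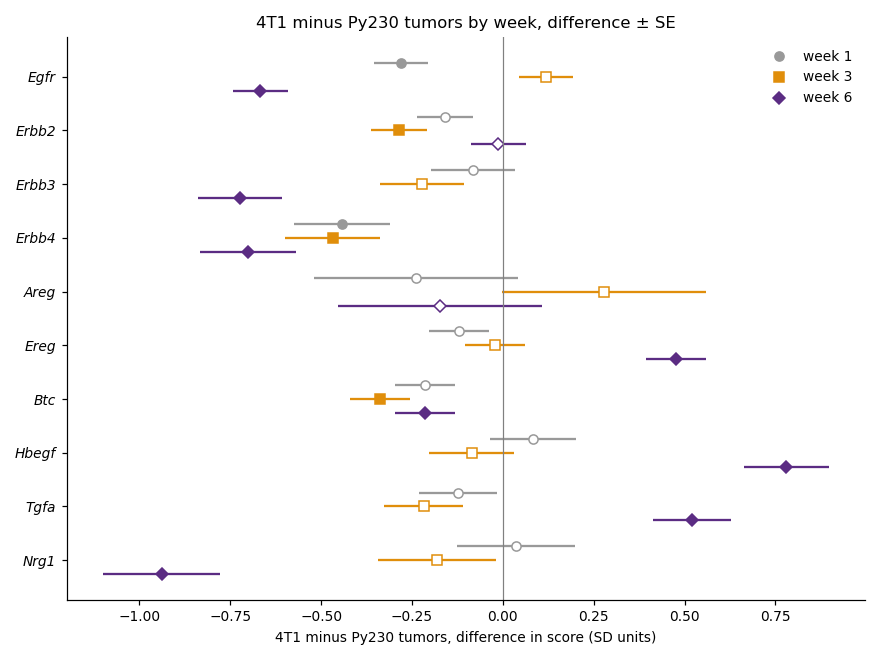
Difference in score (SD units, 4T1 tumor mean minus Py230 tumor mean, bars show the SE of the limma model) for the 10 genes at weeks 1, 3 and 6, filled where the adjusted p was under 0.05. At week 6 Hbegf (0.78), Tgfa (0.52) and Ereg (0.48) lay on the 4T1 side and Nrg1 (-0.94), Erbb3 (-0.72), Erbb4 (-0.70) and Egfr (-0.67) on the Py230 side.

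Genes around the receptors were counted from lists, with both tumors set against their own glands at week 6, where the shares of all genes called higher or lower and the medians over all genes are those given above. Of 8 genes of ligand shedding, 6 were higher and 1 lower in 4T1 tumors and 4 were higher and 0 lower in Py230 tumors, with median differences of 0.24 and 0.16. Timp3, an inhibitor of ADAM17, was the lower gene, by 0.66 ± 0.065 against BALB/c glands (limma adjusted p = 5.31e-09), and it was 0.75 ± 0.065 lower in 4T1 than in Py230 tumors (adjusted p = 5.33e-10). Adam12, a protease that releases Hbegf, was 0.41 ± 0.088 higher in 4T1 tumors than in Py230 tumors at week 3 (adjusted p = 0.00105), but 0.38 ± 0.088 lower at week 1 (adjusted p = 0.00435). Between the tumors, 1 of the 8 was higher and 3 were lower in 4T1 tumors at week 1 (11% and 8.43% of all genes). At week 3, 2 were higher and 1 lower (11.9% and 18.5%), and at week 6, 0 were higher and 1 lower (24.1% and 16.7%).

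Of 16 genes that restrain the receptors or RAS-MAPK signaling, 10 were higher and 1 lower in 4T1 tumors and 8 were higher and 1 lower in Py230 tumors at week 6, with medians of 0.25 and 0.13. Spry1, which restrains RAS signaling, was 0.83 ± 0.079 higher in 4T1 tumors than in BALB/c glands (limma adjusted p = 3.11e-09) and 0.61 ± 0.079 higher than in Py230 tumors (adjusted p = 6.32e-07). Spred2, of the same family, was 0.31 ± 0.045 higher in 4T1 than in Py230 tumors (adjusted p = 3.46e-06). Between the tumors, 1 of the 16 was higher and 8 were lower in 4T1 tumors at week 1 (11% and 8.43% of all genes), 2 were higher and 5 lower at week 3 (11.9% and 18.5%), and 6 were higher and 3 lower at week 6 (24.1% and 16.7%).

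Of 10 genes that MAPK signaling induces, 8 were higher and 0 lower in 4T1 tumors and 9 were higher and 0 lower in Py230 tumors at week 6, with medians of 0.61 in each. Fosl1, a subunit of AP-1, was 1.25 ± 0.17 higher in 4T1 than in Py230 tumors (limma adjusted p = 9.17e-07). Phlda1 was 0.51 ± 0.099 lower in 4T1 than in Py230 tumors (adjusted p = 0.000128) and rose against the glands in both models. Between the tumors, 1 of the 10 was higher and 1 lower in 4T1 tumors at week 1 (11% and 8.43% of all genes). At week 3, 0 were higher and 4 lower (11.9% and 18.5%), and at week 6, 2 were higher and 4 lower (24.1% and 16.7%). The 4 proliferation markers averaged 1.13 in 4T1 and 1.05 in Py230 tumors at week 6, against 0.06 and 0.24 in the glands. At week 1 they averaged 0.84 in 4T1 and 0.39 in Py230 tumors. The part of proliferation in these counts was not tested.

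**Figure D5:**
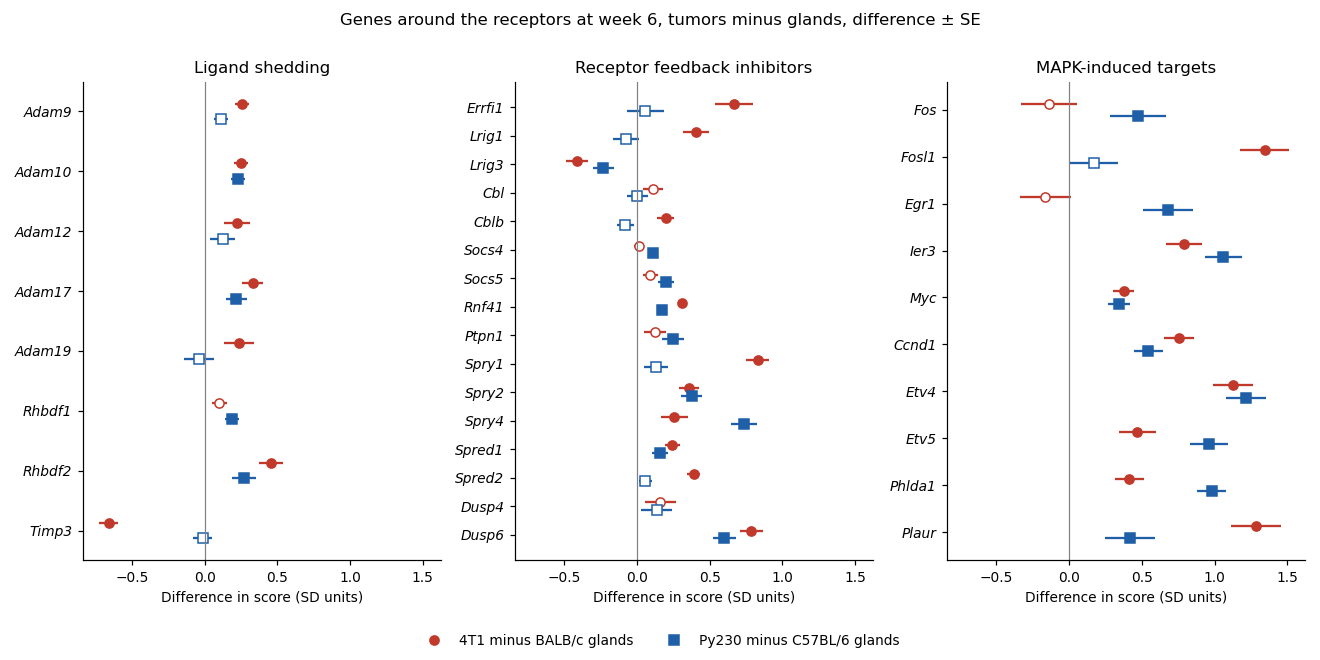
Difference in score at week 6 (SD units, tumor mean minus mean of the Matrigel glands of the same strain, bars show the SE of the limma model) for 8 genes of ligand shedding, 16 feedback inhibitors and 10 MAPK-induced targets, with 4T1 tumors as circles and Py230 tumors as squares, filled where the adjusted p was under 0.05. Most filled points lay to the right of 0, and Timp3 lay at -0.66 in 4T1 tumors.

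The genes of the signaling core were split. Of 17 adaptor and RAS-MAPK genes, 8 were higher and 3 lower in 4T1 tumors and 6 were higher and 5 lower in Py230 tumors against the glands at week 6 (medians 0.075 and 0.03). The RAS genes differed between the models. Hras was 0.97 ± 0.073 higher in Py230 tumors than in C57BL/6 glands (limma adjusted p = 1.03e-09) and 0.98 ± 0.073 lower in 4T1 than in Py230 tumors (adjusted p = 3.04e-11). Nras was 0.44 ± 0.048 higher in 4T1 than in Py230 tumors (adjusted p = 3.66e-08). Of 15 genes of PI3K-AKT and STAT5 signaling, 5 were higher and 5 lower in 4T1 tumors and 5 were higher and 6 lower in Py230 tumors (medians 0.045 and -0.085). Pik3r3, a regulatory subunit of PI3K, was 1.16 ± 0.093 above the glands in Py230 tumors (adjusted p = 1.84e-09) and 1.49 ± 0.093 lower in 4T1 than in Py230 tumors (adjusted p = 1.08e-12). Pik3r1, another such subunit, fell against the glands in both models, by 0.97 ± 0.080 in 4T1 and by 0.33 ± 0.080 in Py230 tumors, and it is also expressed in adipocytes, whose markers fell in the same tumors. The part of adipocytes in this result was not tested.

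Of the 4 other ligands of the family in the table, Nrg2 stood out in the same model as Nrg1. Nrg2 was 1.19 ± 0.14 higher in Py230 tumors than in C57BL/6 glands at week 6 (limma adjusted p = 4.22e-07) and 1.56 ± 0.14 lower in 4T1 than in Py230 tumors (adjusted p = 1.08e-09). Against the glands it was also higher in Py230 tumors at week 3, by 0.78 ± 0.14 (limma adjusted p = 0.000511), when Nrg1 was not called (0.21 ± 0.16, adjusted p = 0.385). Between the tumors, Nrg2 was called lower in 4T1 tumors at weeks 1 and 3 too. At week 1 it was not called in either tumor against its own glands.

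The genes whose scores followed each member most closely over the 36 libraries were found among the other genes whose mean normalized count reached 100 (13566, or 13567 for Ereg and Btc, which lie below this limit), and are given with Pearson's r. For the receptors, Egfr was followed by Plpp3 (0.944), Plxdc2 (0.931) and Cxcl12 (0.926), of which Cxcl12 encodes a chemokine of stromal cells. Erbb2 was followed by Fzd6 (0.889), Samd14 (0.884) and Plxna3 (0.882). Erbb3 was followed by Il17re (0.942), Naaladl2 (0.92) and Serpinb5 (0.918), and Erbb4 by Ttpa (0.933), 4933421O10Rik (0.931) and Abhd14b (0.929). For the ligands, Hbegf was followed by Dmp1 (0.957), S100a8 (0.946) and Tpp2 (0.944), of which S100a8 is a gene of neutrophils. Tgfa was followed by Lama5 (0.953), Champ1 (0.953) and Itgb4 (0.951), of which Lama5 and Itgb4 encode a laminin chain and a laminin-binding integrin. Ereg was followed by Klf5 (0.88), Tmprss11e (0.874) and Tpbg (0.844), and Nrg1 by Mapre1 (0.891), Slc39a6 (0.879) and Api5 (0.879). The closest genes had lower values for Btc, with Nit1 (0.803), Mlh3 (0.8) and Copg2 (0.79), and for Areg, with Mboat1 (0.698), Hnrnpa0 (0.682) and Msl1 (0.667). The 36 points fall into 12 groups and share their group means, so these values describe a likeness of pattern and are no test.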

How the data were processed

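RNA of whole tumors or glands was sequenced from 36 libraries (12 groups of 3, read from the sample titles). The kit of the authors kept strand, paired reads were mapped to mm10 (STAR), summariseOverlaps gave gene counts and DESeq2 was used to normalize these (versions, annotation and strand setting are not given in the sources used here). The deposited expression values are score values, not counts: over the 21650 genes, mean and SD are 0 and 1 in every library. The methods do not describe this step. The rank of genes within a library is kept by it, but differences between libraries of unlike spread can shift. The authors' mean normalized count, the other deposited value used, gave levels. Their columns of fold changes and p-values were not used.

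Because the values were scores and not counts, limma 3.58.1 in R 4.3.3 was used with 1 mean per group over all 36 libraries, empirical Bayes moderation (trend, robust) and Benjamini-Hochberg adjustment over all genes, with a threshold of 0.05. Comparisons of one tumor with its glands and with the other tumor share the libraries of that tumor. The code was tested on simulated data. Positions came from GENCODE M21 (GRCm38, the build of mm10). No low-value filter was applied, so all 10 genes entered the fit. The members were taken by name with no limit on their values, but this family, the gene lists and the tests were chosen with earlier results of these data known. Same-numbered samples were checked for pairing by the correlation of their deviations from group means: all 3 pairs were above 0.1 in 1 of 12 comparisons, the glands of both strains at week 1. Named genes were the 10 members, the 2 genes of each pathway list with the smallest p between the tumors, and the 3 genes most like each member.

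Alternatives were other scalings, moderation without trend or robustness, a filter, the replicate number as a block, the compared groups alone, the gland difference subtracted, and each library left out.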

Additional observations from a re-analysis of the deposited data

Results flagged for a closer look

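In 7 cases the difference between 4T1 and Py230 tumors changed between time points by limma's test of that change, adjusted over all genes. For Egfr the 4T1 minus Py230 difference changed by 0.40 score units from week 1 to week 3 (adjusted p = 0.0139), a call lost without 4T1 tumor 2 of week 3 (0.32, adjusted p = 0.0563), and by -0.79 from week 3 to week 6 (adjusted p = 5.71e-06). Between weeks 3 and 6 it also changed by -0.50 for Erbb3 (adjusted p = 0.0247), by 0.50 for Ereg (adjusted p = 0.00233), by 0.87 for Hbegf (adjusted p = 0.000355), by 0.74 for Tgfa (adjusted p = 0.000735) and by -0.76 for Nrg1 (adjusted p = 0.0152). The Erbb3 call was lost without 4T1 tumor 2 of week 6 (-0.28), 4T1 tumor 3 of week 3 (-0.45) or Py230 tumor 3 of week 6 (-0.45), and the Nrg1 call without Py230 tumor 2 of week 6 (-0.64, adjusted p = 0.0517). The share of all genes with such a change was 15.3% for weeks 1 to 3 and 26.7% for weeks 3 to 6.

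In 7 further cases the tumor minus gland difference at week 6 was unlike in the 2 models by limma's interaction test. The 4T1 minus Py230 value was -0.70 for Egfr (adjusted p = 1.64e-05), -0.71 for Erbb3 (adjusted p = 0.00181), -0.72 for Erbb4 (adjusted p = 0.00518), -1.07 for Nrg1 (adjusted p = 0.000891), 0.40 for Ereg (adjusted p = 0.0114), 0.69 for Hbegf (adjusted p = 0.00277) and 0.46 for Tgfa (adjusted p = 0.0251). The share of all genes called was 25.5%. Erbb2 gave -0.025 (adjusted p = 0.898), Areg -0.73 (adjusted p = 0.187) and Btc -0.16 (adjusted p = 0.34).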

How the results depend on the processing

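Of 45 differences of the 10 genes that limma called, 222 of 239 values under other settings kept direction and call, 17 lost the call and 0 reversed; with each library left out, 279 of 312 kept both, 33 lost the call and 0 reversed. The count of 7 genes in 4T1 tumors against BALB/c glands at week 6 was 6 or 7 with each library left out and 6 to 8 under the other scalings, moderation without trend or robustness, the block and the 2 groups alone. With genes below the median mean score left out, only Egfr, Erbb2, Erbb3 and Tgfa of the 10 entered the fit, and the counts between the tumors became 1, 1 and 3 at weeks 1, 3 and 6, those of 4T1 tumors against glands 0 and 3 at weeks 1 and 6, those of Py230 tumors against glands 0 and 1 at weeks 3 and 6, the change between weeks 3 and 6 of the difference between the tumors 3, and the differences of week 6 against week 3 to 4 in 4T1 and 0 in Py230 tumors. With the 2 groups alone in the fit (fewer samples), the tumors differed in 1 and 0 genes at weeks 1 and 3, 4T1 tumors from glands in 0 at week 1, and Py230 tumors from glands in 0 at week 3. With the gland difference subtracted, the tumors differed in 0 genes at weeks 1 and 3, where 0.305% and 9.15% of all genes were called. Quantile normalization left 1 gene for Py230 tumors between weeks 3 and 6.

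With each library left out, the counts between the tumors ranged from 0 to 2 at week 1, 3 to 4 at week 3 and 7 to 8 at week 6. Those of 4T1 tumors against glands ranged from 0 to 3 at weeks 1 and 3, with Areg added at week 1 without 4T1 tumor 2 (0.82). Those of Py230 tumors against glands ranged from 0 to 1 at week 3 and 3 to 5 at week 6. The glands of both strains ranged from 0 to 1 at week 3. The change of the difference ranged from 0 to 1 between weeks 1 and 3 and from 5 to 7 between weeks 3 and 6. Between weeks 1 and 3, 4T1 tumors ranged from 0 to 1 (Erbb4, 0.34 without 4T1 tumor 1 of week 3), and between weeks 3 and 6 Py230 tumors ranged from 1 to 3, with Erbb4 added without Py230 tumor 3 of week 6 (-0.51). Erbb4 in 4T1 tumors at week 3 against week 1, not called, reversed to -0.013 without 4T1 tumor 3 of week 3.

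Of 36 pairs of same-numbered samples, 10 had a correlation above 0.1 (range -0.466 to 0.789). All 3 pairs did so only in BALB/c against C57BL/6 glands at week 1 (0.413, 0.789 and 0.558), where 0 genes were called with and without the replicate block, and the labels do not say that numbers mark a shared batch. With the replicate block, the change between weeks 3 and 6 of the difference between the tumors was called for 7 genes in place of 6, Erbb2 being added (0.27, adjusted p = 0.0483), and the other counts were 2, 3 and 8 between the tumors, 2, 0 and 7 for 4T1 and 0, 1 and 5 for Py230 tumors against glands, and 0 between the glands at each week. Depth is unknown, and a gene as low as Ereg is limited by it.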

Other observations

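Some genes of the lists were chosen for mention after their values were seen. Egf, the founding ligand of the family, was lower in 4T1 tumors than in BALB/c glands at week 6 (-1.13) and was not called in Py230 tumors against C57BL/6 glands (-0.45). Nrg4, a neuregulin of adipose tissue that binds Erbb4, was lower in both, with -0.81 in 4T1 and -0.86 in Py230 tumors. Neither Egf nor Nrg4 was called between the 4T1 and Py230 tumors at week 6. The immediate early genes Egr1 and Fos were lower in the 4T1 than in Py230 tumors at week 6, with -1.05 and -0.73, and were higher in Py230 tumors than in C57BL/6 glands, with 0.68 and 0.48. Errfi1 and Lrig1, inhibitors of Egfr, exceeded Py230 tumors in the 4T1 model by 0.56 and 0.44. Spry4 went the other way with -0.42. All of these values are limma differences in score units.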
